A study of Mus musculus with 24 samples.

Results

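The ligands and receptors of the semaphorin, Slit-Robo, netrin-Unc5 and Eph-ephrin systems were followed in mammary tissue of the MMTV-PyMT mouse and in normal mammary gland. The members were taken by symbol alone, as the protein-coding genes of the count table whose GENCODE M1 symbol begins with Sema3 to Sema7, Plxna to Plxnd, Nrp1 or Nrp2, Slit1 to Slit3, Robo1 to Robo4, Ntn1 to Ntn5, Unc5a to Unc5d, Epha, Ephb, Efna or Efnb. This gave 69 of the 37991 genes in the table, with 20 semaphorins, 11 plexins and neuropilins, 3 Slits, 4 Robos, 4 netrins, 4 Unc5 receptors, 14 Eph receptors and 9 ephrin entries. Efna5 is listed under 2 gene identifiers, the second of which had no count in any library. PyMT mice were F1 females from FVB/N-Tg(MMTV-PyVT)634Mul/J males and FVB females, were heterozygous for the transgene, and expressed the polyoma middle T antigen from the MMTV promoter, which is active in mammary epithelium. FVB females of the same age without the transgene served as controls. Tissue from 3 PyMT and 3 FVB mice was sequenced at each of week 6 (hyperplasia), week 8 (adenoma/MIN), week 10 (early carcinoma) and week 12 (late carcinoma), which gave 24 libraries in 8 groups of 3. The stage names apply to the PyMT mice, and the FVB samples were whole glands rather than isolated epithelium.

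These gene families were first described in axon guidance and also act in vessels and epithelia. Class 3 semaphorins are secreted and bind neuropilins, which signal through plexins of class A and through Plxnd1, whereas most other semaphorins are held in the membrane and bind plexins directly. Slits bind Robos, netrins bind Dcc, neogenin and Unc5 receptors, and ephrins bind Eph receptor tyrosine kinases on neighbouring cells, with GPI-anchored A ephrins preferring EphA and transmembrane B ephrins preferring EphB receptors. In the mammary gland, netrin 1 with neogenin, Slits with Robo1, and Epha2 are known for parts in the growth and layering of ducts, while Nrp1, Plxnd1, Robo4, Efnb2 and Ephb4 are known from blood vessels.

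Epha2 was the member with the largest increase in PyMT tissue, and Robo4 and Plxnd1 were lower in every PyMT library than in any FVB library, so the promoters of these genes are shown. Each is the 250 bases before the RefSeq start of the gene, read from a RefSeq table and matched to NCBIM37 (mm9). The Epha2 promoter lies at chr4:140856886-140857135 on the plus strand, the Robo4 promoter at chr9:37209307-37209556 on the plus strand and the Plxnd1 promoter at chr6:115945024-115945273 on the minus strand. Capitals mark TGACGTCA, the palindromic cyclic AMP response element, and GGAAG, the core of many ETS factor sites, which reads CTTCC where it lies on the other strand. The RefSeq start of Robo4 lies 75 bases inside its GENCODE M1 gene model. Both of its marked GGAAG sites, 48 and 23 bases before the RefSeq start, therefore lie within that model.
Epha2: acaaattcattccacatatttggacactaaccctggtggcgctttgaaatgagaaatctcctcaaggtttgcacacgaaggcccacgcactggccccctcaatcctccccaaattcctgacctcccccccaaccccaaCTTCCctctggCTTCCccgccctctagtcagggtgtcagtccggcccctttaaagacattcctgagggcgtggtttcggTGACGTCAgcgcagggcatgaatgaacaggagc
Robo4: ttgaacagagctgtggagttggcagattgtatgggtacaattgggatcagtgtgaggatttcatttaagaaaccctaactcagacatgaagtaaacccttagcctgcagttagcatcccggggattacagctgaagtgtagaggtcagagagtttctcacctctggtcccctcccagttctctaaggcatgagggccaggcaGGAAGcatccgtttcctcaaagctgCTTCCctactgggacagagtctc
Plxnd1: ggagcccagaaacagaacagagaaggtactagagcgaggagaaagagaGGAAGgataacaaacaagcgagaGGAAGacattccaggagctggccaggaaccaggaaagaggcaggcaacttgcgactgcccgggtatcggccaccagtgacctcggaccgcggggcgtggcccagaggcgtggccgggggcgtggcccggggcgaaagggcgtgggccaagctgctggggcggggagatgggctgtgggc
The TGACGTCA of the Epha2 promoter began 33 bases before the start, and this 8-base motif was found in 1.55% of all 32851 promoters of the same length in the table. It was in 1 of the 4 promoters of members called higher, which was that of Epha2 itself. It was in 0 of 28 promoters of members called lower and 0 of 33 of tested members that were not called. For a motif this rare, its absence from sets of this size does not set the groups apart. GGAAG, searched on both strands, was found 2 times in each of these 3 promoters and in 64.1% of all promoters. Of the members, 59 had a promoter in the table, with 75 promoters in all. GGAAG was found in 14 of the 28 promoters of members called lower in PyMT and in 28 of the 33 promoters of tested members that were not called (84.8%). TATAAA was found in 1 of those 28 and 1 of those 33 promoters, and in 12.4% of all promoters. None of the 3 motifs contains another, and a match describes the sequence only.

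Total counts per library ran from 6969375 to 13516601. The FVB gland is a mixture of epithelium, fat, stroma and vessels, and the libraries showed it. Luminal epithelial markers (Krt8, Krt18, Krt19, Epcam, Cdh1 and Elf5) were present in all 24 libraries, with 5 of 6 called higher in PyMT over all weeks. The exception, Krt19, went the other way (log2 fold change -0.59, PyMT over FVB) and was not called. At week 6 its PyMT libraries all lay below the FVB libraries. In FVB, 4 libraries had a summed normalized count of skeletal muscle markers above 100000 (week 6 replicates 1 and 2, week 10 replicate 3 and week 12 replicate 1), against a median of 1194 over the 12 FVB libraries. FVB week 10 replicate 3 and PyMT week 8 replicate 2 also stood apart in having the most moderately expressed genes without a count (4.40% and 2.87%). Where a member was at 0 in single libraries, these 2 were often among them, as given below for the genes concerned.

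Of the 69 members, 57 had a CPM (a count scaled to a common library total) of at least 1 in at least 12 libraries and were tested. The other 12, which were Efna3, the second Efna5 entry, Epha5, Epha6, Epha8, Epha10, Ntn5, Robo3, Sema4f, Sema5b, Slit1 and Unc5d, had at most 60 counts in any library. Over all weeks, with 12 PyMT against 12 FVB libraries, 28 of the 57 tested members were called lower and 3 higher by edgeR's quasi-likelihood test. A call required a Benjamini-Hochberg adjusted p under 0.05 together with a difference of more than 2-fold. Over all 14918 tested genes, 17.2% were called lower and 8.51% higher, 25.7% in all, against 31 of the 57 members. Log2 fold changes are PyMT over FVB, given ± an approximate standard error (SE). This SE is the absolute log2 fold change divided by the square root of the quasi-likelihood F statistic. The median log2 fold change was -1.01 for the members and -0.03 for all tested genes. With libraries scaled by their size alone, which moved the median of all genes from -0.03 to 0.26, the split was 24 lower and 6 higher. The matching shares of all tested genes are not given here.

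At single weeks, 3 libraries stood against 3. At week 6, 14 members were called lower and 1 higher, against 6.46% and 3.58% of all tested genes (10% in all). At week 8 the counts were 13 lower and 1 higher, against 6.37% and 3.57% (9.95%). At week 10 they were 14 lower and 4 higher, against 9.09% and 4.83% (13.9%). At week 12 they were 20 lower and 7 higher, against 13% and 7.75% of all tested genes (20.7%). With scaling by library size alone, which moved the median of all genes upward, the week 12 counts were 16 lower and 12 higher. The shares of all tested genes under that scaling are not given here. In all, 32 of the 57 tested members (56.1%) were called at 1 or more weeks, against 25.9% of all tested genes, and 19 (33.3%) at 2 or more, against 14.6%. None was called in both directions, as was the case for 0% of all tested genes. Of the 74 calls at single weeks, 42 passed with every library of that week left out in turn. At week 6, the 15 calls became 8 without PyMT replicate 1, 9 without FVB replicate 2 and 9 without FVB replicate 3. At week 8, the 14 calls became 5 without PyMT replicate 1, 7 without FVB replicate 2 and 8 without FVB replicate 3. The shares of all tested genes called with these libraries left out are not given here. Over all weeks, 30 of the 31 calls passed without any 1 library, the exception being Sema7a.

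**Figure D1:**
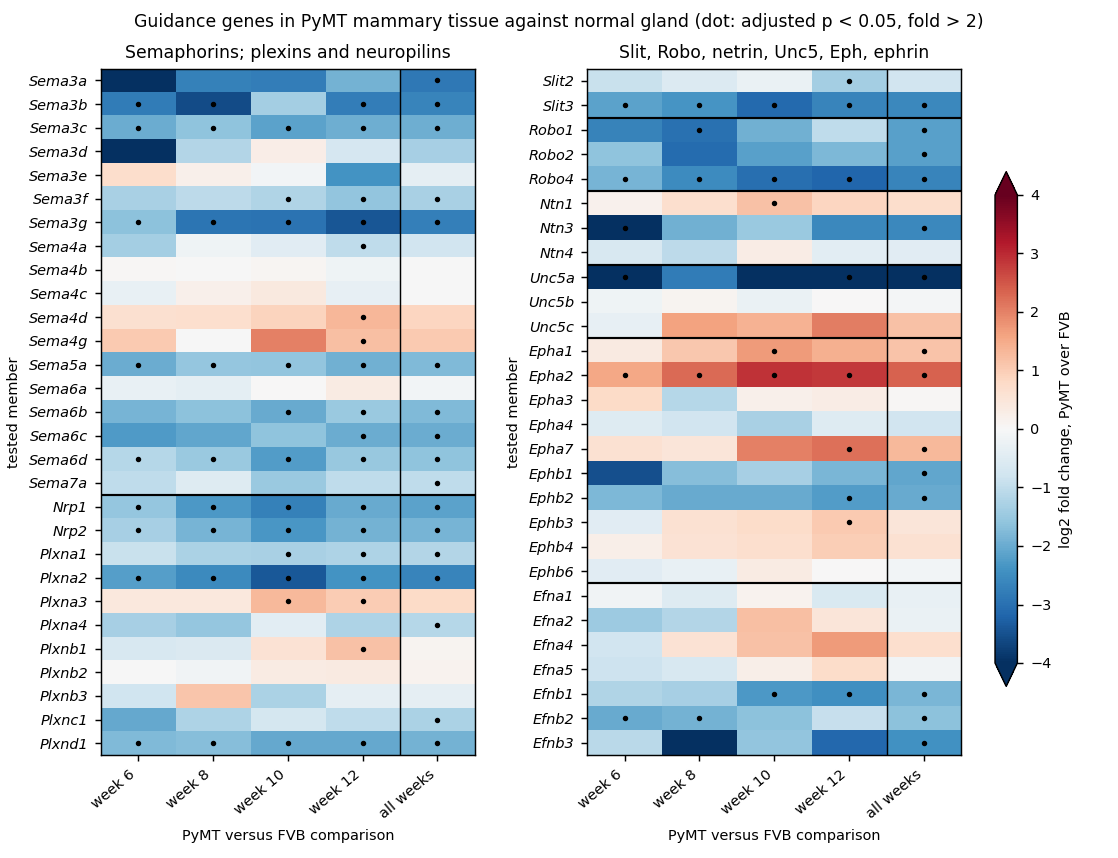
The heatmap shows the log2 fold change, PyMT over FVB, of the 57 tested members (rows, by family) at each week and over all weeks (columns), with colors held at 4 beyond -4 and 4 and a dot where the adjusted p was under 0.05 and the fold change above 2. Blue rows fill most of the semaphorin 3, neuropilin, Slit3, Robo and ephrin-B blocks, and the Epha2 row is red at every week (1.54 to 2.88).

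Markers of several cell types moved with genotype as well. All 7 endothelial markers (Pecam1, Cdh5, Tek, Tie1, Emcn, Esam, Cldn5) were called lower in PyMT, with log2 fold changes from -2.003 to -3.04. Their summed normalized count ran from 3962 to 7178 in FVB and from 575 to 1688 in PyMT. Also called lower were all 5 pericyte and smooth muscle markers (median -2.83, sums 8932 to 20468 in FVB and 1074 to 2841 in PyMT) and all 7 fibroblast markers (median -2.19, sums 51479 to 188619 and 21571 to 45214). The same held for all 7 adipocyte markers (median -3.88, sums 45550 to 127577 and 1013 to 15255) and all 8 skeletal muscle markers (median -4.72, sums 80.2 to 609080 and 0 to 34429). Of the basal and myoepithelial markers 3 of 6 were called lower (sums 2491 to 10701 in FVB and 1160 to 5474 in PyMT). None of 5 macrophage markers was called (sums 2309 to 6442 and 2106 to 5465), and of 5 Schwann cell markers 3 were called lower and 1 higher (sums 879 to 2819 and 1715 to 2840). The 6 lymphocyte markers were too low to be tested, with sums of at most 97.1. The summed luminal markers ran from 4173 to 18301 in FVB and from 19708 to 37267 in PyMT. By H&E staining, the paper reported mostly tumor cells in its carcinoma samples, with few stromal and muscle cells. It gave no such estimate for the FVB glands. From counts of bulk tissue, fewer cells of a type and less RNA per cell cannot be told apart. The part of these markers in the results for the guidance genes was not tested.

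**Figure D2:**
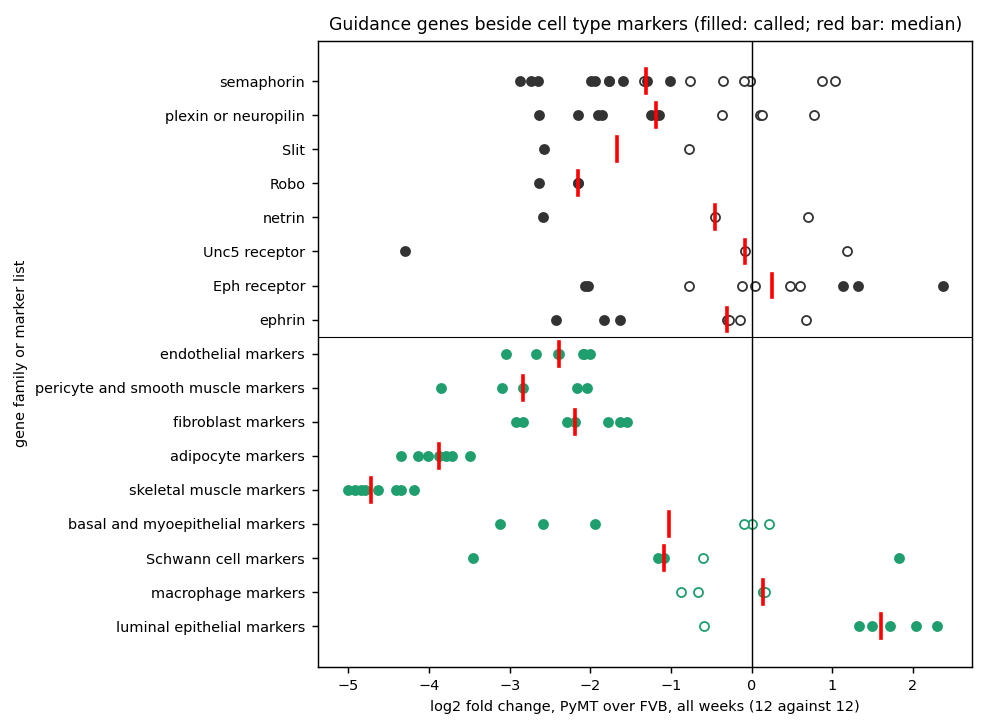
Each point is the log2 fold change of 1 gene, PyMT over FVB over all weeks (12 libraries each), for the tested members by family (upper rows) and the cell type markers (lower rows). Filled points passed the test and the red bar is the median of the row. Slit and Robo points lie below 0, Eph receptor points lie on both sides, and the endothelial markers lie between -3.04 and -2.003.

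Among the ligands, most secreted class 3 semaphorins were lower in PyMT tissue, and no class 4 semaphorin was called over all weeks, except with scaling by library size alone (Sema4d and Sema4g, both higher) or with DESeq2 (Sema4g). Of 7 class 3 semaphorins 5 were called lower over all weeks, with a class median log2 fold change of -1.94, and the other 2, Sema3d and Sema3e, were not called. Sema3g (chromosome 14, 32031046 to 32043536, plus strand), a class 3 semaphorin known from the vessel wall, had in FVB 335, 216 and 341 normalized counts at week 6, 373, 308 and 334 at week 8, 366, 501 and 224 at week 10, and 362, 376 and 340.1 at week 12. In PyMT it had 82.8, 130.4 and 77.2 normalized counts at week 6, 41.98, 15.00 and 74.1 at week 8, 29.4, 71.3 and 36.7 at week 10, and 29.8, 44.9 and 22.2 at week 12. Every PyMT library was below every FVB library, and the log2 fold change over all weeks was -2.73 ± 0.27, adjusted p = 7.46e-09. Sema3c (chromosome 5, 17080099 to 17236086, plus strand), which had the highest level per kilobase of exon of any semaphorin in FVB (135 ± 52.9 SD, n = 12), had in FVB 1173, 1054 and 972 normalized counts at week 6, 442, 829 and 960.5 at week 8, 911, 700.4 and 1826 at week 10, and 1174, 382 and 1122 at week 12. Its PyMT values were 262, 194 and 355 normalized counts at week 6, 245, 192 and 280.0 at week 8, 184, 329 and 234 at week 10, and 218, 174 and 272 at week 12. FVB week 12 replicate 2 came nearest to the PyMT range without entering it, and the gene was called lower at all 4 weeks (log2 fold change -1.94 ± 0.19, adjusted p = 9.61e-09).

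Sema3a, known as a repellent of growing axons, was the semaphorin with the largest decrease over all weeks (log2 fold change -2.87 ± 0.62, adjusted p = 0.000398), although it was called at no single week. Its FVB values were 75.3, 80.2 and 41.4 normalized counts at week 6, 27.8, 44.2 and 66.7 at week 8, 38.8, 37.1 and 62.6 at week 10, and 34.98, 54.2 and 45.9 at week 12. The PyMT values were 0, 0 and 10.2 normalized counts at week 6, 9.54, 0 and 10.6 at week 8, 12.5, 3.14 and 3.41 at week 10, and 9.25, 12.8 and 12.9 at week 12. Thus 3 of 12 PyMT libraries had no count and none reached the lowest FVB library. Sema3b (log2 fold change -2.64 ± 0.32, adjusted p = 2.57e-07) ran from 147 to 442 (median 219) in FVB and from 11.6 to 128 (median 35.5) in PyMT. Sema3f (log2 fold change -1.29 ± 0.17, adjusted p = 9.94e-07) ran from 199 to 547 (median 332) and from 81.2 to 197 (median 148). Neither range overlapped between genotypes. Sema3b was called at weeks 6, 8 and 12, the week 6 call being lost without FVB replicate 2. Sema3f was called at weeks 10 and 12, the week 10 call being lost without any library but FVB replicate 3.

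The transmembrane class 5 and 6 semaphorins were mostly lower as well. Sema5a (log2 fold change -1.76 ± 0.17, adjusted p = 5.08e-09) ran from 528 to 1271 (median 779) in FVB and 147 to 405 (median 207) in PyMT. Sema6d (log2 fold change -1.60 ± 0.15, adjusted p = 5.68e-09) ran from 591 to 967 (median 821) and 93.3 to 410.4 (median 261). Both were called at all 4 weeks and neither overlapped between genotypes. Sema6b (log2 fold change -1.77 ± 0.25, adjusted p = 2.53e-06) and Sema6c (log2 fold change -1.997 ± 0.36, adjusted p = 6.38e-05) were also called lower over all weeks, while their ranges met. Sema6b ran from 66.9 to 259.6 in FVB and 31.2 to 74.9 in PyMT, and Sema6c from 50.5 to 452 and 13.3 to 125. Sema6b was called at week 10, where the call was lost without any library but FVB replicate 3, and at week 12, where only leaving out PyMT replicate 1 or FVB replicate 2 kept it. Sema6c was called at week 12, and not without FVB replicate 1, PyMT replicate 2 or PyMT replicate 3. Sema7a, a GPI-anchored ligand of integrins and Plxnc1, was just past the fold threshold (log2 fold change -1.01 ± 0.22, adjusted p = 0.000464). Without 10 of the 24 libraries in turn its log2 fold change came inside -1, at the nearest to 0 with -0.92 and an adjusted p of 0.00113 without PyMT week 10 replicate 2.

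The 5 tested class 4 semaphorins, membrane ligands of class B plexins, had a median log2 fold change of -0.02 over all weeks. Sema4g had the largest increase of the family, at 1.03 ± 0.51 with an adjusted p of 0.0926, and passed at an adjusted p of 0.021 without PyMT week 10 replicate 2, where it had no count. Its values were 0 to 102 (median 52.7) in FVB and 0 to 162 (median 104) in PyMT, and its call at week 12 (log2 fold change 1.195 ± 0.36, adjusted p = 0.0379) was lost without any 1 of the 6 libraries. Sema4b was the semaphorin with the highest level per kilobase in PyMT (86.2 ± 10.9 SD) and had a similar FVB value (89.2 ± 23.7), with a log2 fold change of -0.03 ± 0.13, adjusted p = 0.882. A pair of class 4 members called at week 12 alone, in opposite directions, are named after their values were seen. Sema4d, the ligand of Plxnb1, was higher at week 12 (log2 fold change 1.34 ± 0.21, adjusted p = 0.00247), with 198, 255 and 214 normalized counts in FVB and 652, 501 and 482 in PyMT. Over all weeks its difference was below 2-fold (log2 fold change 0.87 ± 0.13, adjusted p = 6.21e-06), and 1 FVB value, 362 at week 10, lay above the lowest PyMT value, 350.0. Sema4a was lower at week 12 (log2 fold change -1.03 ± 0.21, adjusted p = 0.00838), a call lost without FVB replicate 1, PyMT replicate 1 or PyMT replicate 3, each time because the fold change came under 2.

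Both neuropilins, the co-receptors of class 3 semaphorins and of VEGF, were called lower at all 4 weeks. Nrp1 (chromosome 8, 130882973 to 131029362, plus strand) had the highest level per kilobase of all members in FVB (396 ± 100.3 SD). Its FVB libraries had 1935, 1452 and 2231 normalized counts at week 6, 3690, 1874 and 2135 at week 8, 2515, 3110 and 2473 at week 10, and 2286, 1936 and 2423 at week 12. In PyMT it had 547, 781 and 615 normalized counts at week 6, 573, 405 and 566 at week 8, 341, 438 and 419 at week 10, and 788, 489 and 311 at week 12. The highest PyMT library stayed below the lowest FVB library, and the log2 fold change was -2.15 ± 0.17, adjusted p = 1.5e-10 over all weeks and -1.54, -2.30, -2.71 and -2.02 at the 4 weeks in turn. Nrp2 (log2 fold change -1.86 ± 0.15, adjusted p = 3.53e-10) ran from 664 to 1342 (median 850.2) in FVB and 167 to 379 (median 243) in PyMT, again without overlap.

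Plxna2 (chromosome 1, 196446023 to 196643063, plus strand) had the largest decrease among plexins and neuropilins. Its FVB values were 782, 456 and 944 normalized counts at week 6, 1405, 445 and 762 at week 8, 1011, 1427 and 988 at week 10, and 692, 589.8 and 1176 at week 12. Its PyMT values were 117, 192 and 169 normalized counts at week 6, 192, 85.3 and 159 at week 8, 108, 76.5 and 130.5 at week 10, and 254, 107 and 91.5 at week 12. No PyMT value reached the FVB range, which began at 445 in week 8, and the log2 fold change was -2.64 ± 0.23, adjusted p = 1.46e-09. Plxnd1 (chromosome 6, 115904829 to 115945023, minus strand), a receptor of Sema3e known from endothelium, had in FVB 1773, 1352 and 2442 normalized counts at week 6, 2215, 1908 and 2412 at week 8, 2190, 2219 and 1980 at week 10, and 1870, 1874 and 2704 at week 12. PyMT libraries had 634, 332 and 659 normalized counts at week 6, 589.6, 534 and 839.9 at week 8, 516, 409.7 and 567 at week 10, and 541, 548 and 421 at week 12. These groups did not overlap either, the spread within each was narrow, and the adjusted p was the smallest of any member (log2 fold change -1.90 ± 0.13, adjusted p = 2.47e-11). The fold change at single weeks stayed between -2.05 and -1.71.

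Plxna1 (log2 fold change -1.19 ± 0.13, adjusted p = 7.71e-08) was called at weeks 10 and 12 and did not overlap between genotypes (1146 to 1692 in FVB, 248 to 738 in PyMT). However, 10.75% of its exon length is shared with an antisense lincRNA, whose reads could not be told apart if strand was not used in counting. Plxna4 (log2 fold change -1.15 ± 0.26, adjusted p = 0.000634) and Plxnc1, a receptor of Sema7a (log2 fold change -1.25 ± 0.43, adjusted p = 0.018), were called over all weeks and at no single week. Their ranges overlapped, with 70.2 to 229 in FVB and 15.6 to 139.8 in PyMT for Plxna4 and 64.9 to 252 and 0 to 148 for Plxnc1. Without the 4 FVB libraries rich in muscle markers Plxnc1 no longer passed (adjusted p = 0.0787). In the opposite direction, Plxna3, the plexin A with the largest increase, was called higher at week 10 (log2 fold change 1.29 ± 0.32, adjusted p = 0.0301) and week 12 (log2 fold change 1.02 ± 0.20, adjusted p = 0.00648). At week 12 it had 246, 314 and 340.1 normalized counts in FVB and 532, 643 and 588 in PyMT. Over all weeks its increase was below 2-fold (log2 fold change 0.77 ± 0.15, adjusted p = 0.000114). The week 10 call was lost without any 1 of PyMT replicates 1 to 3 or FVB replicate 2, and the week 12 call without FVB replicate 1 or PyMT replicate 2.

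None of the 3 class B plexins, the receptors of class 4 semaphorins, was called over all weeks (log2 fold changes -0.36 to 0.13). Plxnb2 had the highest level per kilobase of any member in PyMT (297 ± 63.7 SD) and the fourth highest in FVB (276 ± 82.7). Plxnb1, named after its values were seen, went from -0.65 ± 0.43 (adjusted p = 0.378) at week 6 to 1.16 ± 0.24 (adjusted p = 0.00948) at week 12, where it was called. Its FVB values were 392, 1320 and 1578 normalized counts at week 6, 761, 1426 and 1731 at week 8, 1188, 637 and 280.1 at week 10, and 432, 616 and 462 at week 12. Its PyMT values were 642, 676 and 775 normalized counts at week 6, 738, 715 and 1120 at week 8, 994, 1194 and 894 at week 10, and 788, 1125 and 1344 at week 12. The FVB values spread widely within and between weeks, and without PyMT replicate 3 the fold change at week 12 came under 2.

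**Figure D3:**
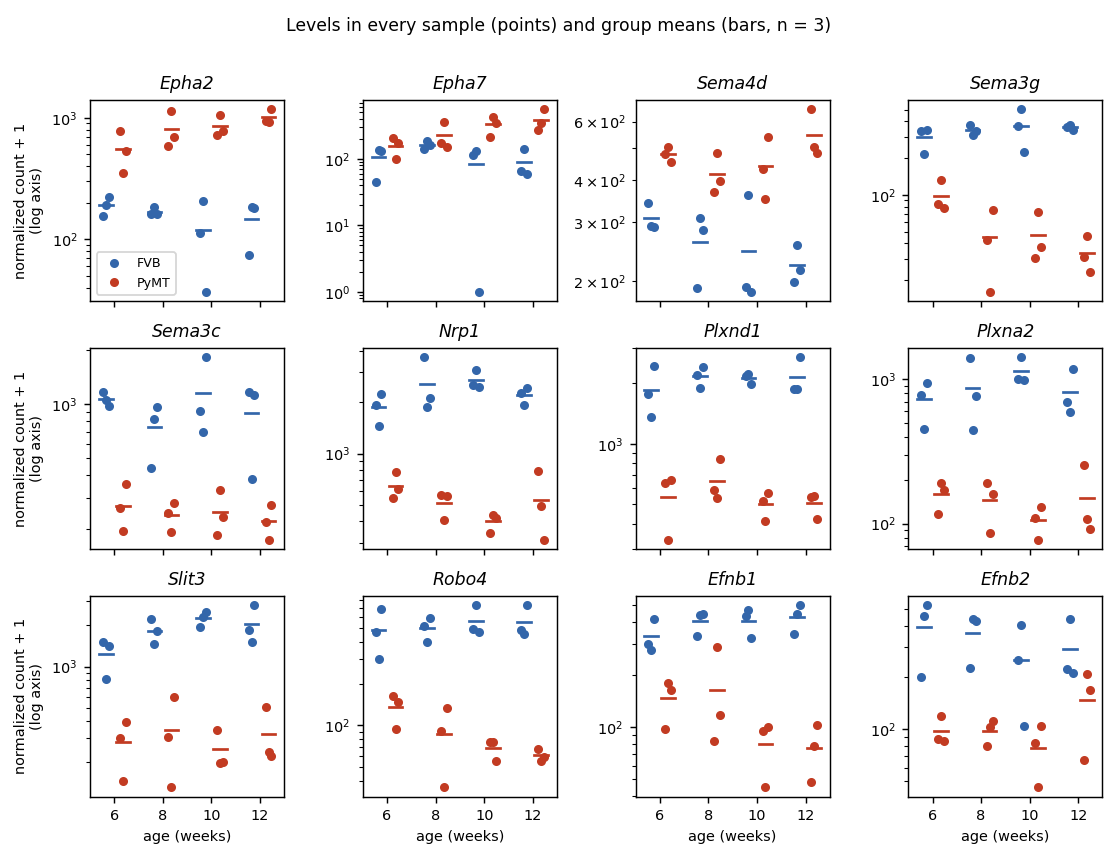
Normalized counts plus 1 (log axis) of 12 members in each of the 24 libraries by age in weeks, FVB in blue and PyMT in red, with bars at the group means of 3. Epha2 lies above FVB at each week, Epha7 overlaps FVB at weeks 6 and 8, Sema4d overlaps it at week 10, and the PyMT libraries of the 9 other members lie below the FVB libraries of the same week, for Efnb2 at weeks 10 and 12 only narrowly.

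Slit3, a secreted ligand of Robos, was among the most abundant members of the normal gland and was low in PyMT tissue from week 6 on. Slit3 (chromosome 11, 34934726 to 35522009, plus strand) had in FVB 1504, 807 and 1406 normalized counts at week 6, 2209, 1456 and 1819 at week 8, 1946, 2292 and 2499 at week 10, and 1850, 1503 and 2820 at week 12. In PyMT the values were 299, 145 and 391 normalized counts at week 6, 304, 130.3 and 602 at week 8, 346, 198 and 201 at week 10, and 504, 236 and 221 at week 12. The ranges did not overlap, all 4 weeks were called, and the level per kilobase went from 304 ± 91.3 (SD) in FVB to 49.1 ± 23.7 in PyMT (log2 fold change -2.58 ± 0.24, adjusted p = 2.47e-09). Slit2 differed less (log2 fold change -0.77 ± 0.20, adjusted p = 0.00208 over all weeks) and was called lower at week 12 alone (log2 fold change -1.37 ± 0.35, adjusted p = 0.0208), a call lost without PyMT replicate 2, PyMT replicate 3 or FVB replicate 3. Slit1 was not tested and had at most 19 counts in a library.

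All 3 tested Robos were called lower over all weeks. Robo4 (chromosome 9, 37209482 to 37221608, plus strand), the Robo known from endothelial cells, had in FVB 467, 300.0 and 689.8 normalized counts at week 6, 515, 399 and 594 at week 8, 497, 736 and 468 at week 10, and 487, 452 and 732 at week 12. PyMT values were 162, 93.9 and 148 normalized counts at week 6, 90.6, 34.7 and 132 at week 8, 74.7, 74.4 and 54.6 at week 10, and 66.8, 54.5 and 58.2 at week 12. The lowest FVB value, 300.0, was above the highest PyMT value, 162, and the PyMT values of week 12 lay below those of week 6. Week 12 was not tested against week 6 alone, and Robo4 was not called in PyMT weeks 10 and 12 against weeks 6 and 8. The log2 fold change was -2.64 ± 0.22, adjusted p = 5.4e-10. Robo1, the Robo known from basal cells of the duct (log2 fold change -2.16 ± 0.42, adjusted p = 0.000128), ran from 132 to 586 (median 336) in FVB and 0 to 178 (median 62.1) in PyMT. It was called at week 8 alone among single weeks and overlapped between genotypes through FVB week 10 replicate 3. Robo2 (log2 fold change -2.16 ± 0.70, adjusted p = 0.0121) was low in both genotypes, with 0 to 179 normalized counts in FVB and 0 to 68.8 in PyMT and with 1 FVB and 2 PyMT libraries at 0.

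Of 3 tested netrins and 3 tested Unc5 receptors 1 each was called over all weeks, Ntn3 and Unc5a, both lower. That was 33.3% of each family, near the 25.7% of all tested genes called. Ntn1, which binds Dcc, neogenin and Unc5 receptors, was the most abundant netrin per kilobase in both genotypes (89.7 ± 22.6 SD in FVB, 147 ± 62.8 in PyMT). Its difference over all weeks was below 2-fold (log2 fold change 0.70 ± 0.17, adjusted p = 0.00153), and it was called higher at week 10 (log2 fold change 1.16 ± 0.25, adjusted p = 0.0178), with 451, 399 and 506 normalized counts in FVB and 747, 1342 and 837 in PyMT. That call was lost without FVB replicate 1, FVB replicate 2 or PyMT replicate 2. Ntn3 had the largest decrease among netrins (log2 fold change -2.59 ± 0.61, adjusted p = 0.00105). Its FVB values were 128, 70.96 and 117 normalized counts at week 6, 168, 88.4 and 80.2 at week 8, 53.9, 12.02 and 97.02 at week 10, and 110.3, 11.3 and 87.5 at week 12, and its PyMT values were 0, 1.04 and 10.8 normalized counts at week 6, 24.8, 49.7 and 14.1 at week 8, 18.7, 17.8 and 18.8 at week 10, and 0, 20.3 and 12.9 at week 12. FVB week 10 replicate 2 and week 12 replicate 2 lay within the PyMT range, and the call at week 6 was lost without any library but PyMT replicate 3. Ntn4, a matrix-bound netrin, was not called (log2 fold change -0.46 ± 0.27, adjusted p = 0.164).

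Unc5a had the largest fold change of any member. In FVB it had 48.7, 84.8 and 81.9 normalized counts at week 6, 40.4, 17.4 and 71.2 at week 8, 79.8, 24.1 and 0 at week 10, and 17.5, 83.2 and 99.5 at week 12. In PyMT it had 3.56, 1.04 and 0 normalized counts at week 6, 3.82, 0 and 13.5 at week 8, 2.67, 0 and 0.853 at week 10, and 0, 5.34 and 3.70 at week 12. No PyMT library passed 13.5, 4 of 12 were at 0, and 11 of 12 FVB libraries lay above that value, the exception being FVB week 10 replicate 3 at 0. With so few counts in PyMT the fitted value (log2 fold change -4.30 ± 0.81, adjusted p = 9.44e-05) is imprecise in size. Unc5a was called at weeks 6 and 12, and both calls depended on single libraries (at week 6 each FVB library, at week 12 FVB replicate 3, PyMT replicate 2 and PyMT replicate 3). Unc5b, the most abundant Unc5 receptor, was at 33.4 ± 13.1 (SD) per kilobase in FVB and 31.4 ± 8.81 in PyMT (log2 fold change -0.08 ± 0.24, adjusted p = 0.797). Unc5c had the largest increase of the family (log2 fold change 1.18 ± 0.72, adjusted p = 0.18), from 0 to 27.3 normalized counts in FVB and 3.56 to 88.4 in PyMT.

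The Eph receptors held all 3 members called higher over all weeks, Epha1, Epha2 and Epha7, to which scaling by library size alone added Plxna3, Sema4d and Sema4g. Epha2 (chromosome 4, 140857155 to 140885299, plus strand), a receptor of A ephrins found on epithelia, had in FVB 154, 192 and 223 normalized counts at week 6, 160.2, 185 and 159 at week 8, 113, 205 and 35.99 at week 10, and 73.99, 185 and 182 at week 12. In PyMT it stood at 774, 347 and 531 normalized counts at week 6, 581, 1146 and 694 at week 8, 718, 1061 and 779.6 at week 10, and 948, 925 and 1172 at week 12. It was the only tested member with every PyMT library above every FVB library (1.8% of tested members, against 4.67% of all tested genes), and its lowest FVB value was in week 10 replicate 3. The log2 fold change was 2.37 ± 0.24, adjusted p = 1.12e-08 over all weeks, and 1.54 ± 0.33, 2.26 ± 0.29, 2.88 ± 0.55 and 2.83 ± 0.34 at weeks 6, 8, 10 and 12, all 4 of them called. Without the 4 FVB libraries rich in muscle markers it was 2.22, and without the 2 libraries with the most genes at 0 it was 2.18. Its level per kilobase went from 33.3 ± 11.8 (SD) in FVB to 172 ± 54.2 in PyMT, the third highest of all members there.

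Epha7 had in FVB 44.04, 135 and 132 normalized counts at week 6, 139, 185 and 159 at week 8, 114, 129 and 0 at week 10, and 64.6, 141 and 57.96 at week 12. PyMT libraries had 202, 99.1 and 169.6 normalized counts at week 6, 174, 358 and 150.0 at week 8, 211, 429.7 and 342 at week 10, and 272, 339.8 and 553 at week 12. The groups overlapped at weeks 6 and 8 and lay apart at weeks 10 and 12, and the gene was called higher at week 12 (log2 fold change 2.20 ± 0.43, adjusted p = 0.00718) and over all weeks (log2 fold change 1.31 ± 0.39, adjusted p = 0.00715). Epha1 (log2 fold change 1.14 ± 0.24, adjusted p = 0.000277) ran from 40.4 to 200.0 (median 101) in FVB and 124 to 325 (median 223) in PyMT and was called at week 10, a call lost without any 1 PyMT library of that week. Epha1 shares 4.89% of its exon length with the neighbouring gene Zyx on the opposite strand. The other 2 tested EphA receptors, Epha3 and Epha4, were not called.

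Of 5 tested EphB receptors 2 were called over all weeks, Ephb1 and Ephb2, both lower. Ephb4, the EphB receptor known from veins and from mammary epithelium, had the highest level per kilobase of all Eph receptors in both genotypes (183 ± 39.3 SD in FVB, 275 ± 39.4 in PyMT) and was higher in PyMT by less than 2-fold (log2 fold change 0.60 ± 0.11, adjusted p = 5.38e-05). Ephb2 (log2 fold change -2.02 ± 0.49, adjusted p = 0.00118) ran from 15.7 to 269.6 (median 168) in FVB and 0 to 78.8 (median 34.1) in PyMT and was called lower at week 12. Ephb1, the Eph receptor with the largest decrease (log2 fold change -2.07 ± 0.67, adjusted p = 0.0117), was low throughout, with normalized counts of 0 to 106 (median 65.4) in FVB and 0 to 37.2 (median 12.1) in PyMT. Its 1 FVB library at 0 was week 10 replicate 3. Ephb3, named after its values were seen, was called higher at week 12 alone (log2 fold change 1.04 ± 0.31, adjusted p = 0.0365), and this call was lost without FVB replicate 1 or 2 or PyMT replicate 2 or 3.

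All 3 B ephrins were called lower over all weeks, and none of the 4 tested A ephrins was called. Efnb1 (chromosome X, 96331469 to 96344330, plus strand), the most abundant ephrin of the normal gland (114 ± 21.5 SD per kilobase), had in FVB 300.2, 278 and 418 normalized counts at week 6, 330.5, 442 and 448 at week 8, 433, 468 and 324 at week 10, and 343, 444 and 502 at week 12. PyMT values were 97.04, 177 and 163 normalized counts at week 6, 82.05, 287 and 116 at week 8, 94.3, 44.01 and 98.9 at week 10, and 47.3, 76.9 and 102 at week 12. They overlapped through 1 PyMT library, week 8 replicate 2, and the log2 fold change was -1.83 ± 0.23, adjusted p = 3.67e-07, with calls at weeks 10 and 12. Efnb2, known from arteries, had in FVB 199, 454 and 526 normalized counts at week 6, 226, 437 and 425 at week 8, 251, 399.8 and 103 at week 10, and 222, 436 and 211 at week 12. In PyMT the libraries had 87.2, 119 and 85.1 normalized counts at week 6, 79.2, 102 and 111 at week 8, 82.7, 45.1 and 103 at week 10, and 65.8, 207 and 169 at week 12. The groups were well apart at weeks 6 and 8, where it was called, and at weeks 10 and 12 the highest PyMT values lay just under the lowest FVB values. Over all weeks the log2 fold change was -1.63 ± 0.25, adjusted p = 7.61e-06. The call at week 6 was lost without FVB replicate 2 or 3 or PyMT replicate 1 or 3, and the call at week 8 without FVB replicate 2 or 3 or PyMT replicate 1.

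Efnb3 had the largest decrease among ephrins (log2 fold change -2.43 ± 0.91, adjusted p = 0.0294) on few counts. FVB libraries had 3.48, 16.97 and 28.2 normalized counts at week 6, 47.9, 10.5 and 27.1 at week 8, 16.5, 13.03 and 0 at week 10, and 5.38, 11.3 and 21.9 at week 12. PyMT libraries had 8.90, 14.6 and 0 normalized counts at week 6, 0, 0 and 4.12 at week 8, 0, 0 and 9.38 at week 10, and 0, 0 and 3.70 at week 12. Of 12 PyMT libraries 7 were at 0, against 1 of 12 in FVB. Among A ephrins, Efna1, known as a ligand of Epha2, was the most abundant ephrin in PyMT (55.1 ± 17.5 SD per kilobase, against 68.5 ± 17.7 in FVB) and was not called (log2 fold change -0.30 ± 0.21, adjusted p = 0.25). Efna4 had the largest increase of the family (log2 fold change 0.67 ± 0.45, adjusted p = 0.227), and 10.5% of its exon length is shared with an antisense lincRNA.

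Set beside each other on the scale of normalized counts per kilobase of exon, the classes made up different parts of their families in PyMT and FVB libraries. Class 3 semaphorins made 31.8% to 45.6% of the summed semaphorin level in FVB (median 37.3%) and 13.1% to 28.2% in PyMT (median 18.6%). Class 4 made 23.6% to 34.1% in FVB (median 27.5%) and 45.1% to 58.1% in PyMT (median 53.4%). Neither range overlapped between genotypes. The summed class 4 level itself was close in both, 284 ± 44.9 (SD, n = 12) in FVB and 293 ± 27.2 in PyMT, while that of class 3 was 388 ± 50.6 and 104 ± 22.6. Among receptors of semaphorins, neuropilins made a median of 33.7% of the summed plexin and neuropilin level in FVB and 14.8% in PyMT, and class B plexins made 26.0% and 53.5%. The summed neuropilin level was 492 ± 117 (SD) in FVB and 115 ± 31.4 in PyMT, and that of Plxnd1 was 289 ± 50.1 and 76.4 ± 18.3. The summed class B plexin level was 382 ± 134 and 403 ± 78.1, with overlapping ranges.

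For ephrins, the A class made 32.2% to 47.5% of the summed level in FVB (median 44.5%) and 58.0% to 87.9% in PyMT (median 71.7%), again without overlap. The summed A level was 143 ± 42.2 (SD) in FVB and 139 ± 26.6 in PyMT, and the summed B level was 187 ± 41.8 and 56.4 ± 22.6. Among Eph receptors the A class had a median share of 30.1% in FVB (24.3% to 39.9%) and 43.3% in PyMT (32.2% to 48.9%), with overlap. The summed EphA level was 137 ± 39.1 in FVB and 308 ± 72.5 in PyMT, and the summed EphB level was 313 ± 69.9 and 406 ± 61.3. These shares describe the libraries, and the markers given above differed between the same groups.

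**Figure D4:**
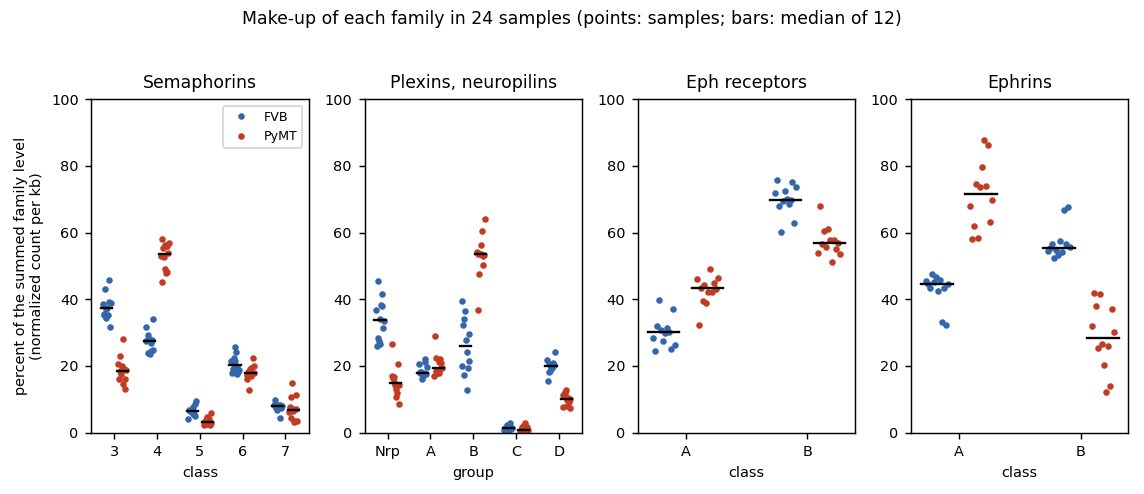
Each point is 1 library and gives the percent of its summed family level (normalized counts per kilobase of exon) held by a class, for semaphorins, plexins with neuropilins, Eph receptors and ephrins, with FVB in blue, PyMT in red and black bars at the median of 12. Class 3 and class 4 semaphorins exchange places between genotypes, with medians of 37.3% and 27.5% in FVB and 18.6% and 53.4% in PyMT, and A ephrins go from 44.5% to 71.7%.

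The order of levels per kilobase differed between genotypes. In FVB the 3 highest members were Nrp1 (396 ± 100.3 SD), Slit3 (304 ± 91.3) and Plxnd1 (289 ± 50.1), and Plxnb2 followed at 276 ± 82.7, and the ranges of these 4 overlapped. In PyMT the 3 highest were Plxnb2 (297 ± 63.7), Ephb4 (275 ± 39.4) and Epha2 (172 ± 54.2), followed by Ntn1 (147 ± 62.8), and here too the ranges of neighbours overlapped. Within families the highest member differed between genotypes for semaphorins (Sema3c in FVB and Sema4b in PyMT), for plexins and neuropilins (Nrp1, Plxnb2) and for ephrins (Efnb1, Efna1), and was the same for Slits, Robos, netrins, Unc5 and Eph receptors.

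**Figure D5:**
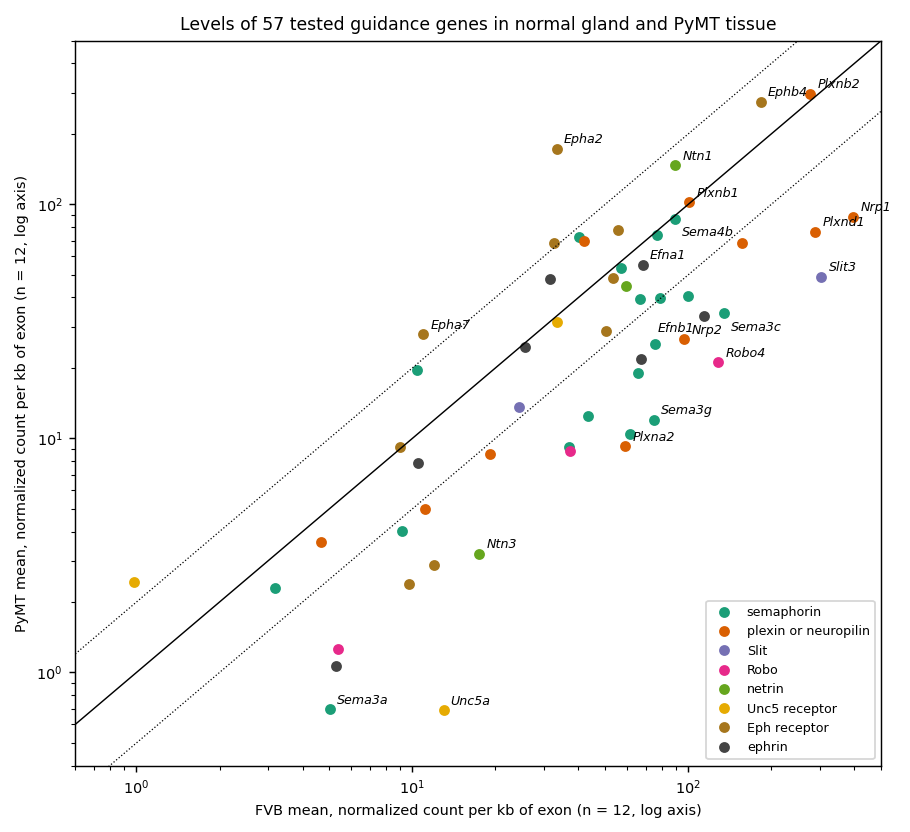
Mean level in FVB (x axis) and in PyMT (y axis), as normalized counts per kilobase of exon on log axes, n = 12 libraries each, for the 57 tested members colored by family, with a solid line at equality and dotted lines at 2-fold. Nrp1, Slit3, Plxnd1 and Robo4 lie far below the line at high FVB levels, Plxnb2 and Sema4b lie on it, and Epha2 (33.3 in FVB, 172 in PyMT) lies above it.

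Over all weeks, every PyMT library was below every FVB library for 14 of the 57 tested members (24.6%), against 7.22% of all tested genes. These were Sema3a, Sema3b, Sema3c, Sema3f, Sema3g, Sema5a, Sema6d, Nrp1, Nrp2, Plxna1, Plxna2, Plxnd1, Slit3 and Robo4. The 10 members called lower at all 4 weeks (17.5% of tested members, against 3.58% of all tested genes) were Sema3c, Sema3g, Sema5a, Sema6d, Nrp1, Nrp2, Plxna2, Plxnd1, Slit3 and Robo4. Epha2 was the 1 member called higher at all 4 weeks (1.75%, against 1.58%). All of their calls at weeks 10 and 12 passed without any 1 library of the week. At week 6 the calls of Robo4, Sema3g, Sema6d and Slit3, with that of Epha2, and at week 8 those of Nrp2, Plxna2, Robo4, Sema3c, Sema3g, Sema5a, Sema6d and Slit3 were lost without PyMT replicate 1, at adjusted p values from 0.0524 to 0.115. All of these but Slit3 at week 6 and Nrp2 and Plxna2 at week 8 were also lost without FVB replicate 2 or FVB replicate 3. A further 7 members passed 0.05 in adjusted p over all weeks with less than a 2-fold difference, 4 of them higher (Ephb4, Ntn1, Plxna3, Sema4d) and 3 lower (Epha4, Sema4a, Slit2). The share of all tested genes in that state was not counted. No call was made at any week or over all weeks for 18 tested members (31.6%), among them the 4 tested A ephrins, Plxnb2, Plxnb3, Unc5b and Unc5c. Of all tested genes, 25.9% were called at 1 or more weeks and 25.7% over all weeks. The share of them with neither was not counted.

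Whether these genes changed with tumor stage was asked by comparing the carcinoma weeks 10 and 12 with the earlier weeks 6 and 8. No member was called in PyMT, where 0% of all tested genes were called, none in FVB, where 0.0134% were called, and none in the difference of both changes (0% of all tested genes), all by edgeR's quasi-likelihood test. DESeq2 and limma voom also called 0 members in each. At an unadjusted p under 0.05 there were 10 members in PyMT (17.5%, against 5.35% of all genes), 4 in FVB (7.02%, against 6.53%) and 9 in the difference (15.8%, against 5.46%). The members with the smallest p are given after their values were seen. Efnb1 in PyMT had a log2 change of -0.97 ± 0.29 (adjusted p = 0.475). Plxnb1 in FVB had -1.02 ± 0.31 (adjusted p = 0.487), and in the difference 1.47 ± 0.44 (adjusted p = 0.66). On simulated counts with 4-fold changes in 200 genes these 3 tests recovered 78%, 69% and 61.5% of them. The simulated runs made 164, 145 and 125 calls, against 0, 2 and 0 over all genes in the data. With so few calls the p cutoff in the data was stricter, so these percentages are not the sensitivity of the tests on the data. The fold changes at single weeks cited above are separate measurements, and a call at 1 week and not at another was not shown to be a difference between weeks.

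Genes that act with these ligands and receptors, as co-receptors, exchange factors and adaptors, were read from a list of 60. The list was chosen with earlier results of these data known, so its shares beside those of all genes are a description only. Of the 60, 59 were in the table and 54 were tested. Over all weeks 6 were called higher (11.1%, against 8.51% of all tested genes) and 16 lower (29.6%, against 17.2%), with a median log2 fold change of -0.10. At weeks 6, 8, 10 and 12, 4, 3, 4 and 4 were called higher, which was 7.41%, 5.56%, 7.41% and 7.41% against 3.58%, 3.57%, 4.83% and 7.75% of all tested genes. Called lower were 6, 7, 11 and 12, which was 11.1%, 13.0%, 20.4% and 22.2% against 6.46%, 6.37%, 9.09% and 13%. The largest increases were in Timd2, a receptor of Sema4a (log2 fold change 2.98 ± 0.32, adjusted p = 3.29e-08, 2.52 to 64.8 normalized counts in FVB and 213 to 345 in PyMT), in Chn2, a Rac GTPase-activating protein (log2 fold change 2.49 ± 0.33, adjusted p = 1.16e-06, 68.1 to 167 and 228 to 2168), and in Srgap3, a GTPase-activating protein of the Slit-Robo pathway (log2 fold change 1.73 ± 0.18, adjusted p = 1.58e-08, 276 to 639.6 and 886 to 1764). None of these 3 overlapped between genotypes. The largest decreases were in Ntng2, a membrane-bound netrin G (log2 fold change -2.94 ± 0.58, adjusted p = 0.000165), in Nrcam, an adhesion molecule that pairs with neuropilins (log2 fold change -2.73 ± 0.89, adjusted p = 0.0125), and in Arhgef15, an exchange factor downstream of Eph receptors known from vessels (log2 fold change -2.72 ± 0.25, adjusted p = 3.66e-09). Nrcam was near the limit of detection, at 0 to 67.1 normalized counts in FVB and 0 to 14.5 in PyMT, and Arhgef15 ran from 164 to 640.3 and from 14.4 to 89.1. Dcc, the classical netrin receptor, had no count in any library, while neogenin (Neo1), which also binds netrins, was tested and not called (log2 fold change -0.30 ± 0.09, adjusted p = 0.00956).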

How the data were processed

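Total RNA of snap-frozen mammary tissue was depleted of ribosomal RNA and sequenced as directional libraries. After adapter trimming, the authors used GSNAP for alignment (mm9) and HTSeq for gene counts, and these raw counts of the 24 samples were deposited without normalization. The annotation version and the strand setting of the counting are not given in the sources used here. GENCODE M1 (mm9) gave symbols, coordinates and exon lengths for 37205 of the 37991 genes. The 14918 genes that reached 1 CPM in 12 or more libraries were tested in R 4.3.3 with edgeR 4.0.16 (quasi-likelihood test, TMM scaling, Benjamini-Hochberg adjustment over all tested genes), and called when the adjusted p was under 0.05 and the difference more than 2-fold. Each week had its own fit of 6 libraries, the comparison over all weeks a fit of week and genotype, and the comparisons across weeks a fit of 8 groups. Normalized counts are counts over DESeq2 1.42.0 size factors.

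In simulated data, 200 of 14918 genes were given a 4-fold change. It was recovered in 40%, 52.5%, 46.5% and 32% of them for weeks 6, 8, 10 and 12, and in 82% over all weeks. The data had more calls (1484 to 3092 genes at single weeks), which changes the p cutoff. These percentages are therefore not the sensitivity of the tests on the data. Replicates differed far beyond sampling noise (chi-square per gene 20.4 to 238), so none was taken for a copy. Depth limits low members, and counts carry no molecular identifiers. Named with values were members called over all weeks or at 2 or more weeks, the largest increase and decrease and the highest level of each family, and the 3 largest called changes in each direction of the pathway list. Members and lists were chosen with earlier results of these data known. The transgene was not analysed here. Alternatives were DESeq2, limma 3.58.1 voom, RLE or library size scaling, no filter, a replicate block, a fit of all 24 samples, and libraries left out. Figures were drawn with matplotlib 3.10.9 in Python 3.11.15.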

Additional observations from a re-analysis of the deposited data

How the results depend on the processing

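Over all weeks the count of members called was 30 to 32 under the alternatives and 30 to 31 with single libraries left out. Without a filter on low counts 67 members were tested and 30 called, 29 of them among the 31, and Efnb3 and Sema7a lost their calls. At week 6, DESeq2 called 24 members in place of 15, and 2229 of all genes in place of 1498. Leaving out single libraries gave 8 to 15 calls at week 6, 5 to 16 at week 8, 14 to 23 at week 10 and 19 to 28 at week 12. A replicate block gave 10, 14, 16 and 26 calls at weeks 6, 8, 10 and 12 and 31 over all weeks. The shares of all tested genes called in these runs are not given here. A fit of all 24 samples kept the 15, 14 and 18 calls of weeks 6, 8 and 10. At week 12 it kept 20 of the 27 calls and lost 7. The replicate numbers were not taken as pairs, since the labels tie them to nothing shared and 4 of 12 pairs correlated above 0.1 (range -0.0251 to 0.177). As a hint from the data, not the design, 14 of 24 samples correlated best with their own number, out of 3 candidates each. The pairs above 0.1 were replicate 3 at weeks 6, 8 and 10 (0.145, 0.177 and 0.164) and replicate 1 at week 10 (0.116). The paper names litter as a slight contributor to its second principal component, and the labels do not give the litter of a sample. With library size only, the median of all genes moved up to 0.32 (week 12), Plxna1, Plxna4, Plxnc1 and Sema7a lost their calls over all weeks, and Plxna3, Sema4d and Sema4g gained one. With voom, Plxnc1 lost its call and Unc5c gained one. Without the 4 FVB libraries rich in muscle markers, chosen after seeing the data, 31 members were called, 30 of them shared. The comparisons across weeks stayed at 0 calls in each alternative run.

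Over all weeks, the members that turned direction under an alternative were not called. With library size only, the log2 fold change was 0.16 for Ephb6, 0.20 for Unc5b, 0.12 for Efna5, 0.27 for Sema4b, 0.24 for Sema4c and 0.15 for Sema6a. With voom it was -0.0426 for Epha3 and 0.00976 for Sema4b, and without a filter 0.00203 for Sema4b and 0.00612 for Sema4c. Sema4b was at 0.0507 without the 2 libraries with the most genes at 0. Without the 4 FVB libraries it was 0.0624 for Sema4b, -0.10 for Plxnb1, -0.026 for Plxnb2 and 0.19 for Plxnb3. With single libraries left out, the range was -0.22 to 0.18 for Epha3, -0.18 to 0.0183 for Unc5b, -0.68 to 0.0598 for Efna2, -0.23 to 0.00797 for Efna5, -0.00125 to 0.22 for Plxnb1, -0.64 to 0.17 for Sema3e, -0.0909 to 0.0362 for Sema4b and -0.10 to 0.0748 for Sema4c. The cause was not tested.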
